A study of Mus musculus with 8 samples.

Results

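The genes described here encode NUAK1, its closest relative NUAK2, the LKB1 complex that activates both, and the myosin phosphatase subunits on which NUAK1 acts. They were chosen by name, as the rows of the raw count table whose Ensembl identifier maps to Nuak1, Nuak2, Stk11, Strada, Stradb, Cab39, Cab39l, Ppp1r12a, Ppp1r12b and Ppp1cb, which makes 10 of 32726 gene identifiers. All 10 were found and all 10 passed the filter on low counts. Poly-A RNA was sequenced from neurons that were cultured from constitutive Nuak1 knockout (KO) or wild-type (WT) mouse embryos, with 4 libraries per genotype (KO1 to KO4 and WT1 to WT4) and, by the study's methods, 4 animals per condition. The methods place the mice on a C57Bl/6JRj background, describe a floxed Nuak1 line carrying Nuak1 tm1a(KOMP)Wtsi, and detect the constitutive allele by a PCR for LacZ. The KO was not restricted to 1 cell type, and no other treatment is given for either genotype. Neurons of both genotypes were kept in culture for 5 days. Lane A carried KO1, KO4, WT1 and WT3, lane B the remaining 4, and the strain labels BJ (KO1, KO2 and KO3), BO (WT1) and BQ (WT3) each occurred in 1 genotype only, whereas BK was shared by KO4, WT2 and WT4.

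LKB1, encoded by Stk11, is a master kinase that phosphorylates the activation loop of AMPK and of a family of AMPK-related kinases. It is active as a complex with a pseudokinase, STRADα or STRADβ (Strada, Stradb), and a scaffold, MO25α or MO25β (Cab39, Cab39l). NUAK1, one of the family, is known in cortical neurons for its role in axon branching downstream of LKB1, and it binds and phosphorylates MYPT1 (Ppp1r12a), the targeting subunit that directs the catalytic subunit PP1β (Ppp1cb) to myosin light chains. MYPT2 (Ppp1r12b) is the related targeting subunit. The comparison of genotypes asks how the transcripts of this pathway stand in neurons that lack NUAK1.

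Libraries held 31247078 to 67155004 counts, with a median of 39224504. The summed neuronal markers Tubb3, Map2, Rbfox3 and Dcx reached 5220 to 6140 CPM (counts scaled to 1000000 per library) in KO and 5460 to 6110 in WT, whereas 2 endothelial markers summed to at most 1.45 CPM and 2 fibroblast markers to at most 1.76 CPM. Cldn5, a defining endothelial marker, was at 0 in 4 libraries. Astrocyte markers (3 of 3 higher in KO, 0 past the adjusted threshold) summed to 66.7 to 414 CPM in the KO libraries and 83.5 to 166 in the WT libraries, and microglial markers to 1.71 to 17.8 and 2.14 to 8.06. Oligodendrocyte lineage markers, at 414 to 533 CPM (KO) and 393 to 513 CPM (WT), stood above the astrocyte sum in KO1, KO2, KO4 and all WT libraries, and interneuron markers stood at 82.9 to 206 and 89.5 to 166 CPM. Division markers (2 of 2 higher in KO, 0 past the adjusted threshold) summed to 127 to 228 and 51.7 to 170 CPM. The tissue label names cortex or hippocampus for every library. KO1 and WT1 stood apart from the other 6 libraries, with median log2 ratios of −0.77 and −0.80 to the remaining libraries of their genotypes over genes with 55 to 60% GC, and fold changes, ratios and levels are given with and without them where they bear on a value.

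Because 8 of the 10 genes come in related pairs and the catalytic subunit has 2 relatives, it mattered whether reads could be shared between them. Coding sequences were 68.8% identical between Nuak1 and Nuak2 over 1820 aligned bases, 60.4% between Strada and Stradb, 75.5% between Cab39 and Cab39l, and 67.3% between Ppp1r12a and Ppp1r12b. The longest identical run in the transcripts compared was 23 bases for the NUAK pair, 14 for the STRAD pair, 17 for the MO25 pair and 17 for the MYPT pair, each shorter than the 40 bases that trimming required of a read. To show how far the pairs part around these runs, the longest runs of 3 pairs follow with 14 bases on each side, 5′ to 3′ on the coding strand. Capitals mark the identical run, and positions are on NCBIM37, the build of the transcript sequences used here, which is not the mm10 build of the counts.
Nuak1 (chr10:83856796-83856846, minus strand, exon 3 of 7, coding): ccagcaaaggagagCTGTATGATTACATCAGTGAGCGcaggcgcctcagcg
Nuak2 (chr1:134224316-134224366, plus strand, exon 4 of 8, coding): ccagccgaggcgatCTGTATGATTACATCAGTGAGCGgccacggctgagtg
Ppp1r12a (chr10:107635899-107635943, plus strand, exon 3 of 26, coding): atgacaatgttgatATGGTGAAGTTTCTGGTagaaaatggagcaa
Ppp1r12b (chr1:136799031-136799075, minus strand, exon 2 of 25, coding): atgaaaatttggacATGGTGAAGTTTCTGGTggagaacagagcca
Ppp1cb (chr5:32790026-32790073, plus strand, exon 7 of 8, coding): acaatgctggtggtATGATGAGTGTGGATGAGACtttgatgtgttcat
Ppp1ca (chr19:4194854-4194901, plus strand, exon 6 of 7, coding): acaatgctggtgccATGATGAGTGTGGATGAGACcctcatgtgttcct
Outside its own gene, 11.5% of the Cab39 transcript and 2.45% of the Ppp1cb transcript matched other places in the genome at 95% identity or more over at least 50 bases, so part of their reads may have been left out as not unique. The other 8 genes had no such match. In the annotation, 302 exon bases of Strada overlap other genes on the same strand, and 232 exon bases of Stk11 overlap a gene on the opposite strand.

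Nuak1 transcripts were nearly absent from KO neurons, and of the 10 genes Nuak1 alone passed the test between genotypes. Nuak1 (ENSMUSG00000020032, GRCm38 chromosome 10, 84370900 to 84440668, minus strand) had 2.47, 2.72, 1.96 and 2.35 CPM in KO1 to KO4 and 51.6, 68.5, 82.6 and 75.3 CPM in WT1 to WT4. The highest KO library thus lay far below the lowest WT library, which was WT1. Remaining KO counts were 86 to 102 per library, and the 95% Wilson intervals of the KO libraries together span 1.61 to 3.32 CPM, which covers counting error only. The KO mean was 3.42% of the WT mean, and the log2 fold change was −4.89 (SE 0.13, 95% interval −5.19 to −4.60, BH-adjusted p 1.24e-07 in the quasi-likelihood test of edgeR). Counts are summed over the whole gene, so they do not show which exons the remaining KO reads came from. The value lay between −5.04 and −4.76 in 20 alternative fits and passed the threshold in 19 of them. The exception was lane A alone, with 2 libraries per genotype, at −4.81 (adjusted p 0.849, edgeR). Without KO1 and WT1 it was −5.01.

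Past the adjusted threshold of 0.05 lay 1 of the 10 genes, against 0.0492% of all 16272 genes tested, and 1 of 10 had an unadjusted p under 0.05, against a background of 10.6%. That background moved with the fit: 1728 of 16272 genes were under this p in the model used, 410 of 16272 without the surrogate variable (a fitted term for unlabelled variation between libraries), 902 of 16559 without WT1 and 939 of 16579 without KO1 and WT1. It was lowest on lane A alone, at 96 of 16238, and higher with 2 surrogate variables, at 1964 of 16272. A second gene had an unadjusted p under 0.05 in 4 of 20 alternatives, namely Ppp1r12b with RLE size factors (0.0478), with DESeq2 (0.0351) and without WT4 (0.0433, edgeR), and Nuak2 without WT3 (0.0189, edgeR). Over all genes these 4 fits had 1674 of 16272, 1562 of 16272, 2194 of 16538 and 2557 of 16425 under this p, in the same order. The CPM ranges of the genotypes were separate for 1 of the 10, Nuak1 again, against a background of 2.40%. For the other 9 genes, log2 fold changes lay between −0.12 and 0.12, with 5 higher and 4 lower in KO, and adjusted p lay between 0.470 and 0.942 (edgeR). Their median was 0.05 and that of all tested genes 0.01. The 95% intervals of these 9 genes together reached from −0.31 to 0.55, and both the lower and the upper end belong to Nuak2, the gene with the fewest counts in WT.

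**Figure D1:**
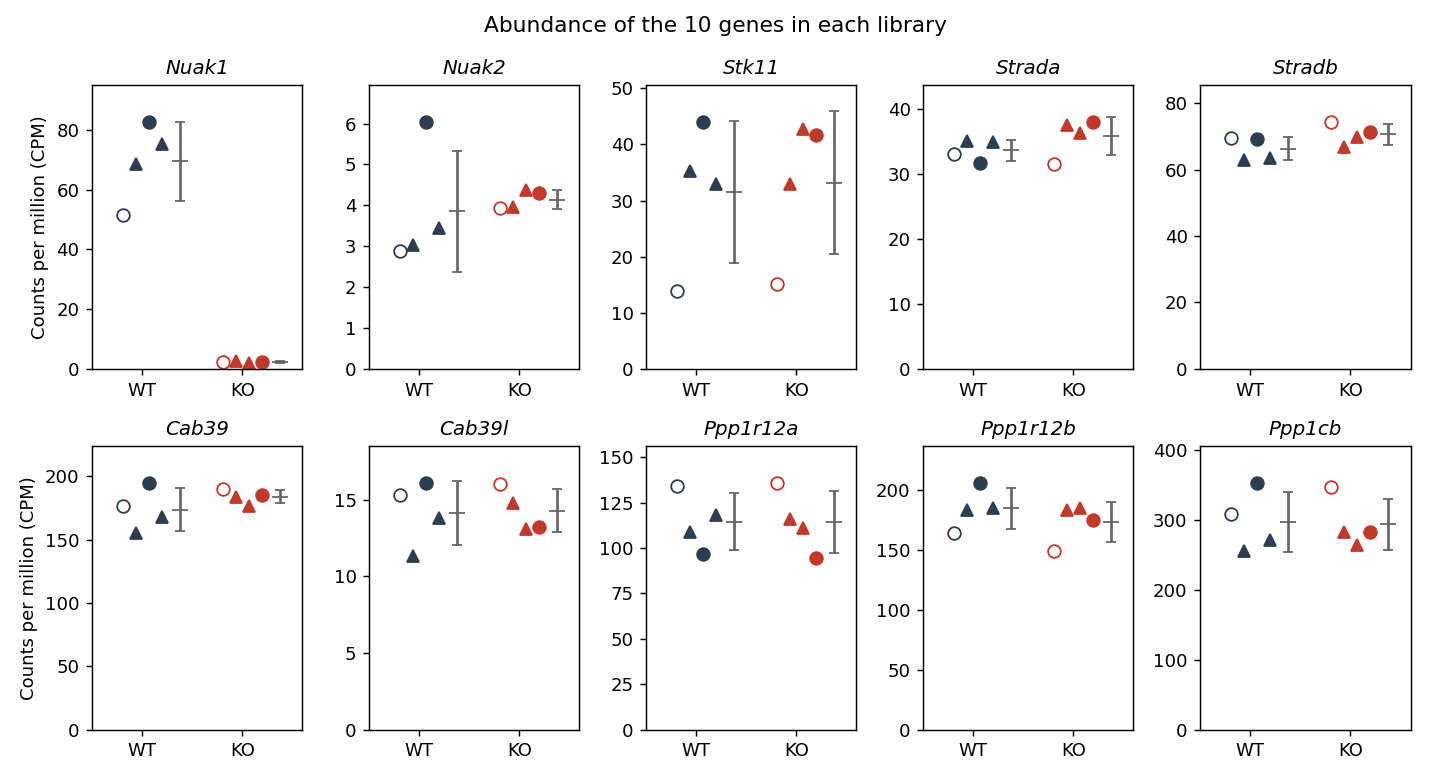
CPM of each of the 10 genes in every library, with WT in dark blue and KO in red. Circles are lane A, triangles lane B, open circles KO1 and WT1, and the grey bar is the mean ± SD of 4 libraries. Nuak1 is separate between genotypes (at most 2.72 CPM in KO, at least 51.6 CPM in WT), and Stk11 is low in KO1 and WT1 at 15.2 and 13.9 CPM.

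**Figure D2:**
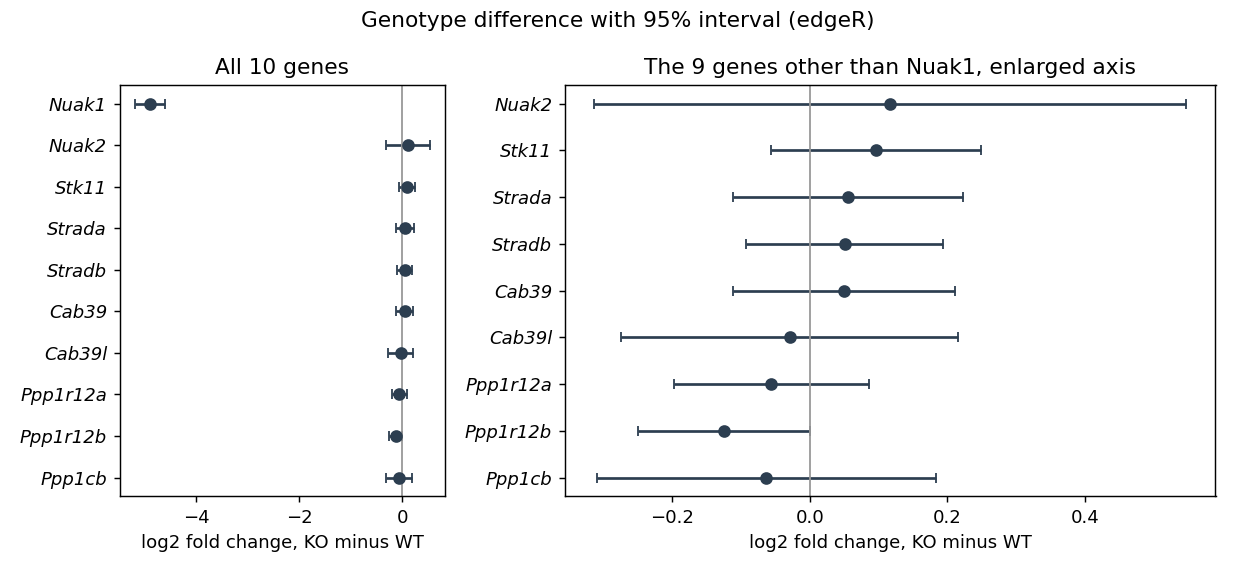
Log2 fold change (KO minus WT) with its 95% interval from edgeR, for all 10 genes on the left and for the 9 genes other than Nuak1 on an enlarged axis on the right. Nuak1 lies at −4.89, and the intervals of the other 9 include 0.

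Nuak2, the only other member of the NUAK subfamily, stayed at a low level in KO. Nuak2 (ENSMUSG00000009772, chromosome 1, 132316125 to 132333488) had 3.94, 3.96, 4.37 and 4.30 CPM in KO1 to KO4 and 2.88, 3.04, 6.04 and 3.45 CPM in WT1 to WT4. KO libraries lay close together, 3 WT libraries lay below all of them and WT3 lay above all of them. The coefficient of variation was 5.46% in KO and 38.4% in WT. The log2 fold change was 0.12 (SE 0.19, 95% interval −0.31 to 0.55, or 0.805 to 1.46 times the WT level). It was 0.35 without WT3 and 0.23 without KO1 and WT1, but −0.13 on lane A, and adjusted p was at least 0.220 in all 20 alternatives. WT3 also had the lowest levels of the division markers Mki67 and Top2a, 26.1 and 25.6 CPM against 54.8 CPM or more in the other 7 libraries, and the highest level of the glutamatergic marker Slc17a6, at 44.2 CPM. Their part in the Nuak2 value was not tested.

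Per length of exon, both NUAK transcripts together stood at 11.1% of the WT level in KO, or 10.3% without KO1 and WT1. Their sum was 1.44, 1.49, 1.46 and 1.51 CPM per kilobase of exon in KO1 to KO4, and 9.91, 12.9, 16.2 and 14.3 in WT1 to WT4. Nuak2 made up 7.27% ± 1.62 of this sum in WT and 71.5% ± 3.73 in KO (SD, n = 4 each). Nuak2 itself had 1.06 ± 0.0578 CPM per kilobase in KO and 0.983 ± 0.377 in WT, so the share moved with the Nuak1 term of the sum.

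In the LKB1 complex, none of the 5 transcripts passed the test, and their genotypes overlapped. Stk11 (ENSMUSG00000003068), which encodes LKB1 itself, lies 4.24 Mb from Nuak1 on chromosome 10 (80115767 to 80130679). It had 15.2, 33.0, 42.7 and 41.7 CPM in KO1 to KO4 and 13.9, 35.3, 44.0 and 33.0 CPM in WT1 to WT4, so that KO1 and WT1 were low and the remaining libraries of the genotypes covered nearly the same range. The log2 fold change was 0.10 (SE 0.07, 95% interval −0.06 to 0.25). The SE was 0.38 when the surrogate variable was left out. With KO1 and WT1 left out the value was 0.16 (SE 0.12).

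The pseudokinase genes were steadier. Strada (chromosome 11, 106162974 to 106193634) had 31.6, 37.5, 36.3 and 38 CPM in KO1 to KO4 and 33.0, 35, 31.7 and 34.9 CPM in WT1 to WT4. Stradb (chromosome 1, 58973522 to 58995122) had 74.3, 66.7, 69.9 and 71.3 CPM in KO and 69.6, 63.0, 69.2 and 63.4 CPM in WT, in the same order of libraries. KO1 was the lowest of the 8 libraries for Strada and the highest for Stradb, and the genotypes overlapped for both. Log2 fold changes were 0.06 (SE 0.08, 95% interval −0.11 to 0.22) for Strada and 0.05 (SE 0.06, −0.09 to 0.19) for Stradb. Without KO1 and WT1 they were 0.09 (SE 0.09) and 0.10 (SE 0.08). Every remaining KO library then lay above every remaining WT library for Strada (adjusted p 0.907, edgeR), but not for Stradb. For how many of all tested genes this holds was not counted.

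Of the scaffolds, Cab39 was the abundant form. Cab39 (chromosome 1, 85793441 to 85851577) had 190, 184, 177 and 185 CPM in KO1 to KO4 and 177, 155, 195 and 168 CPM in WT1 to WT4. Cab39l (chromosome 14, 59440934 to 59548904) had 16.0, 14.8, 13.1 and 13.2 CPM in KO and 15.3, 11.3, 16.1 and 13.8 CPM in WT. WT2 was the lowest and WT3 the highest WT library for both. The log2 fold change of Cab39 was 0.05 (SE 0.07, 95% interval −0.11 to 0.21), and that of Cab39l was −0.03 (SE 0.11, −0.27 to 0.22). Without KO1 and WT1 they were 0.11 (SE 0.08) and 0.02 (SE 0.14).

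The 3 myosin phosphatase genes had negative log2 fold changes, none of which passed the test. Ppp1r12b, which encodes MYPT2 (ENSMUSG00000073557, chromosome 1, 134754658 to 134955963), had 149, 183, 185 and 175 CPM in KO1 to KO4 and 164, 183, 206 and 185 CPM in WT1 to WT4. KO1 was the lowest library, WT3 the highest, and the remaining 6 lay between 164 and 185 CPM. The log2 fold change was −0.12 (SE 0.06, 95% interval −0.25 to 0.00, unadjusted p 0.0503, adjusted p 0.470, edgeR). It ranged from −0.21 on lane A to −0.07 on lane B over the alternatives, without a reversal, and was −0.09 without KO1 and WT1.

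Ppp1r12a, which encodes MYPT1, the NUAK1 target (ENSMUSG00000019907, chromosome 10, 108162092 to 108279985), lies 23.7 Mb from Nuak1 on the other side from Stk11. It had 136, 116, 111 and 94.5 CPM in KO1 to KO4 and 134, 109, 96.9 and 118 CPM in WT1 to WT4. Here KO1 and WT1 were the highest libraries of their genotypes, the reverse of Stk11. The log2 fold change was −0.06 (SE 0.06, 95% interval −0.20 to 0.09). Negative in all 20 alternatives and past the threshold in 0 of them, it ranged from −0.02 without KO4 to −0.11 without WT1 among fits with 1 library left out, and was −0.14 without KO1 and WT1 and −0.28 with strain label in the model.

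Ppp1cb, the catalytic subunit of the myosin phosphatase (chromosome 5, 32458848 to 32493713), had 347, 282, 264 and 282 CPM in KO1 to KO4 and 308, 256, 353 and 271 CPM in WT1 to WT4. KO1 and WT3 were high and the genotypes overlapped. The log2 fold change was −0.06 (SE 0.11, 95% interval −0.31 to 0.18), and it changed sign to 0.06 without WT3. Without KO1 and WT1 it was −0.01 (SE 0.09).

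Levels between genes can be compared only per length. In WT, in CPM per kilobase of exon, the order was Ppp1cb (42.4 ± 6.20), Cab39 (41.9 ± 4.06), Ppp1r12a (32.9 ± 4.47), Ppp1r12b (13.3 ± 1.24), Nuak1 (12.4 ± 2.35), Stradb (9.14 ± 0.497), Stk11 (6.89 ± 2.77), Strada (6.03 ± 0.283), Cab39l (4.56 ± 0.681) and Nuak2 (0.983 ± 0.377, SD, n = 4 each). Ranges over the 4 WT libraries were separate at 3 steps of this order, below Ppp1r12a, below Strada and below Cab39l, and overlapped at the other 6. In WT, Nuak1 spanned 9.17 to 14.7, overlapping Ppp1r12b above it and Stradb and Stk11 below it, and lay wholly above Strada at 5.68 to 6.28. In KO, at 0.422 ± 0.0564, it lay below Nuak2 in every library. Without WT1 the order was the same, Stk11 stood at 8.17 ± 1.28, and Nuak1, at 12.2 to 14.7, no longer overlapped Stradb at 8.68 to 9.54 or Stk11 at 7.20 to 9.61. The order depends on the length used. Exon lengths joined over all annotated forms are long for Ppp1r12b (13853 bases), and with the length of the transcript that has the longest coding sequence (3621 bases) Ppp1r12b, at 51.0 ± 4.75, stood level with Ppp1cb, at 51.0 ± 7.44. With that length Stradb and Strada, at 22.4 ± 1.22 and 16.0 ± 0.751, stood above Nuak1 at 12.5 ± 2.38, and Cab39l and Nuak2 stayed last.

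**Figure D3:**
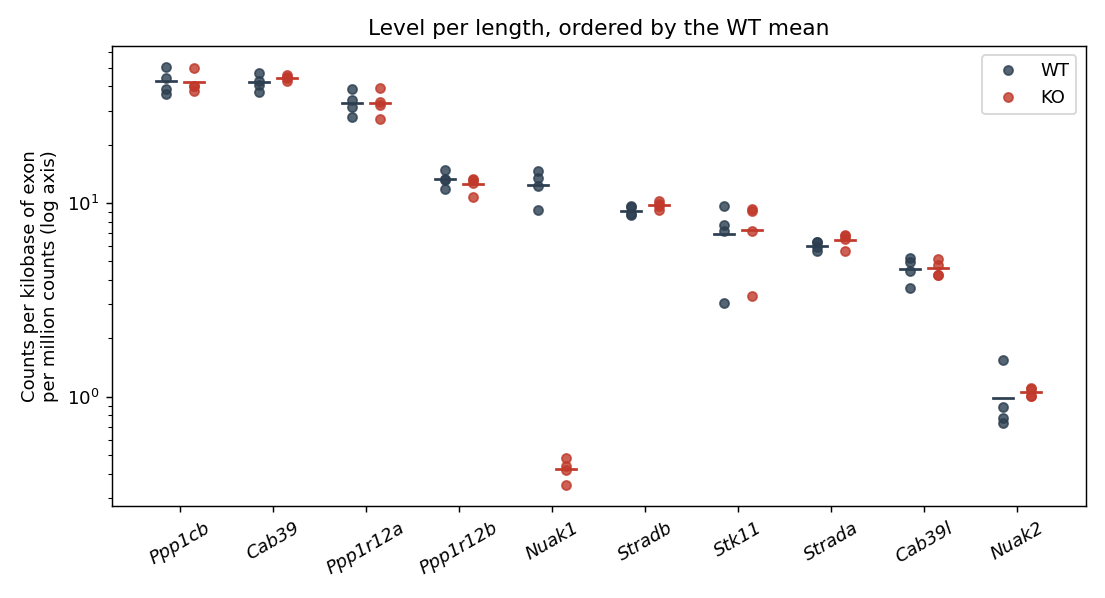
Level of the 10 genes in CPM per kilobase of exon on a log axis, ordered by the WT mean, with 1 point per library and a line at the mean of each genotype. Nuak1 is the gene whose genotypes are apart, at 0.348 to 0.483 in KO and 9.17 to 14.7 in WT, and Nuak2 is the lowest gene in WT.

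Related subunits were also compared within a library, since a ratio of 2 genes does not depend on library scaling. The log2 ratio of Stradb to Strada counts was 1.23, 0.83, 0.94 and 0.91 in KO1 to KO4 and 1.08, 0.85, 1.13 and 0.86 in WT1 to WT4, with means of 0.98 in both genotypes (difference 0.0005). Cab39l over Cab39 was −3.57, −3.64, −3.76 and −3.81 in KO and −3.54, −3.78, −3.60 and −3.60 in WT, a difference of −0.07. Ppp1r12b over Ppp1r12a was 0.13, 0.66, 0.74 and 0.89 in KO and 0.29, 0.74, 1.09 and 0.65 in WT, a difference of −0.09. In this last ratio KO1 and WT1 were the lowest libraries of their genotypes. Without them the differences of the 3 ratios were −0.05, −0.08 and −0.06, in the same order.

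Ppp1cb over the sum of Ppp1ca and Ppp1cc, the genes of the other PP1 catalytic subunits, was 1.57, 0.76, 0.64 and 0.65 in KO1 to KO4 and 1.67, 0.85, 1.01 and 0.81 in WT1 to WT4. The difference was −0.17, and KO1 and WT1 stood above all others. Apart from them every KO library lay below every WT library, and the difference was then −0.20 (adjusted p 0.4, two-sided exact permutation test, in which 3 against 3 libraries cannot go below an unadjusted p of 0.1). The count of Ppp1cc is uncertain, because 99.7% of its transcript matched other places in the genome. None of the 4 ratios differed between genotypes in two-sided exact permutation tests of 4 against 4 libraries, with p of 1.0, 0.343, 0.714 and 0.457 in the order given and 0.914 or more after BH adjustment over the 4. The smallest p this design allows is 0.0286.

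**Figure D4:**
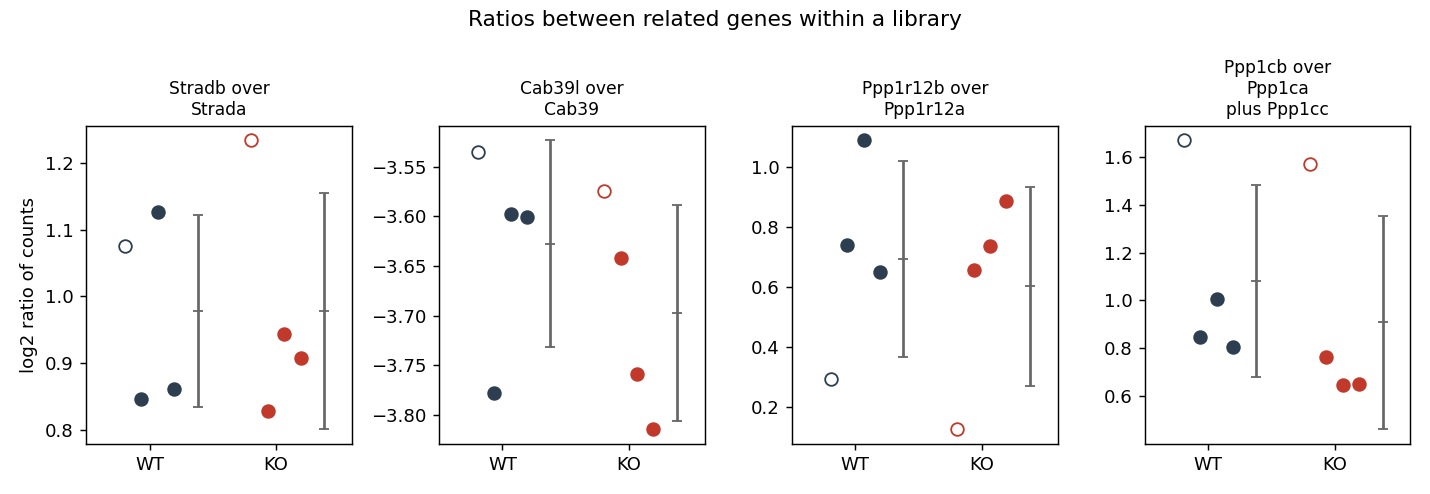
Log2 ratio of counts between related genes within each library, WT in dark blue and KO in red, with open circles for KO1 and WT1 and the grey bar for the mean ± SD of 4 libraries. Genotypes overlap in all 4 ratios, and KO1 and WT1 stand highest for Ppp1cb at 1.57 and 1.67 and lowest for Ppp1r12b at 0.13 and 0.29.

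KO1 and WT1 differed from the other libraries of their genotypes in the same direction for 9 of the 10 genes. Relative to the median of the other 3 libraries, Stk11 stood at 0.364 times in KO1 and 0.394 times in WT1, lower than all but 4.41% and 6.15% of tested genes. Ppp1r12a stood at 1.23 and 1.22 times, Ppp1cb at 1.23 and 1.14, Cab39l at 1.21 and 1.10, and Ppp1r12b at 0.814 and 0.887. Nuak1 was the gene with opposite signs, at 1.05 times in KO1, where few transcripts remain, and 0.685 times in WT1.

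These shifts ran alongside the base composition of the transcripts. GC content ranged from 40.1% for Ppp1cb to 59.7% for Stk11 over the 10 genes. Spearman's rho between GC content and the log2 ratio was −0.83 in KO1 and −0.782 in WT1 over the 10 genes, and −0.757 and −0.747 over the 13627 tested genes with a known GC content. Each of these correlations is across genes that share the same libraries and is given as a description. Among all tested genes with 55 to 60% GC the median log2 ratio was −0.77 in KO1 and −0.80 in WT1. Stk11 lay below both, at −1.46 and −1.34, but its 59.7% GC is at the upper edge of this class. In the next class, 60 to 65% GC, the medians were −1.13 and −1.19. The part of base composition in the library differences was not tested.

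**Figure D5:**
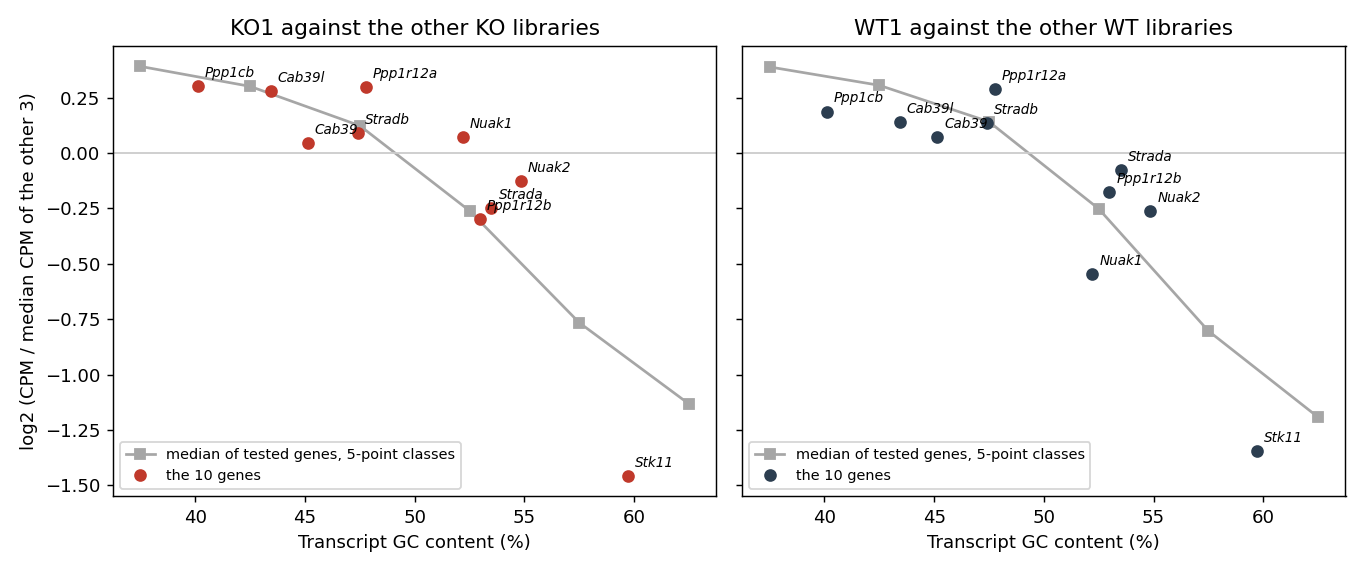
Log2 of the CPM in KO1 (left) and WT1 (right) over the median CPM of the other 3 libraries of the genotype, against the GC content of the transcript. Coloured points are the 10 genes and grey squares the medians of all tested genes in classes 5 percentage points wide, which fall from 0.39 in the lowest class to −1.13 in KO1 and −1.19 in WT1. Stk11 is lowest in both.

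The genes around the pathway were read from 4 lists. Among genes of actomyosin contraction and of the other phosphatase subunits, 19 of 20 were tested (Ppp1r14a was too low), 0 passed the adjusted threshold in edgeR, DESeq2 or limma-voom, and 1 was higher and 2 lower at an unadjusted p under 0.05, where the share of all tested genes was 10.6%. Their median log2 fold change was 0.07. Myh10, the heavy chain of non-muscle myosin IIB and the most abundant gene of this list, ranged over 353 to 462 CPM in KO and over 383 to 557 in WT (log2 fold change −0.19, SE 0.07, unadjusted p 0.0154, adjusted p 0.372, edgeR). Ppp1ca, which encodes PP1α, ranged over 106 to 167 CPM in KO and over 87.7 to 164 in WT (0.15, SE 0.05, unadjusted p 0.0183, adjusted p 0.387, edgeR), and 15.5% of its exon bases overlap a gene on the opposite strand. Without KO1 and WT1 the values were −0.13 (SE 0.09) for Myh10 and 0.17 (SE 0.08) for Ppp1ca, with an unadjusted p of 0.167 and 0.0585 in edgeR.

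Of 8 regulators of LKB1 or NUAK1, all were tested, 0 passed in any of the 3 tools and 1 was lower at an unadjusted p under 0.05 (10.6% of all tested genes), with a median of 0.02. That gene was Usp9x, a deubiquitinase that binds NUAK1 and MARK4, with KO libraries at 233 to 351 CPM and WT libraries at 286 to 416 CPM (log2 fold change −0.32, SE 0.08, 95% interval −0.51 to −0.13, unadjusted p 0.00382, adjusted p 0.310, edgeR), and a value of −0.26 (SE 0.08) without KO1 and WT1. Hsp90ab1, a chaperone subunit and the most abundant of the 8, ranged over 1580 to 1750 CPM in KO and over 1320 to 1650 in WT (log2 fold change 0.09, SE 0.07).

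Of 10 genes for proteins described as targets of NUAK1 or of myosin phosphatase, 0 passed in any of the 3 tools. In edgeR 0 had an unadjusted p under 0.05, where the share of all tested genes was 10.6%, and the median was 0.10. Mapt, which encodes the microtubule-associated protein tau, was the most abundant, with KO libraries at 2150 to 2940 CPM and WT libraries at 1970 to 2730 CPM (log2 fold change 0.11, SE 0.08, and 0.18, SE 0.11, without KO1 and WT1). Of 12 other kinases activated by LKB1, 0 passed in any of the 3 tools, with a median of −0.02 and a range from −0.17 to 0.07. Again 0 had an unadjusted p under 0.05 in edgeR, against the same 10.6%. In lists of 10 and 12 genes, 0 is near that share. Mark3, a kinase of microtubule-associated proteins and the most abundant of these, ranged over 134 to 141 CPM in KO and over 130 to 146 in WT (log2 fold change −0.0048, SE 0.06). In each of the 4 lists, 0 genes had separate CPM ranges between the genotypes, a share that was itself 2.40% over all tested genes.

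Genes with the most similar pattern to Nuak1 over the 8 libraries were ranked by the mean absolute difference of standardised log2 CPM, for which the median over tested genes was 1.11. The closest was ENSMUSG00000112640 (0.123), which had no symbol in the tables used here, 0 CPM in every KO library and 0.357 to 0.640 CPM in WT. Tdg (0.141), a DNA glycosylase gene, has an uncertain count, because 88.1% of its transcript matched other places in the genome at 95% identity or more. It followed with KO libraries at 2.13 to 3.02 CPM and WT libraries at 8.06 to 9.16 CPM, and then ENSMUSG00000094622 (0.145) with 0.145 to 0.259 and 1.09 to 1.42 CPM. All 3 were low in the 4 KO libraries and high in the 4 WT libraries, which is what a ranking by likeness to Nuak1 selects.

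For Nuak2 the closest genes were Trnp1 (0.180), Necap1 (0.189), a gene of clathrin-mediated endocytosis, and Camk2n2 (0.192), which encodes an inhibitor of CaM kinase II, where the median over tested genes was 1.03. Trnp1 ranged over 22.3 to 23.9 CPM in KO and over 19.0 to 28.4 in WT. All 3 had a wider range in WT than in KO, as Nuak2 did, a likeness for which the ranking selects. Their log2 fold changes were 0.08, 0.06 and −0.01.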

How the data were processed

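The authors deposited raw read counts per Ensembl gene. Per their methods and the submitters' processing notes, reads were trimmed (Cutadapt 1.10, reads under 40 bases removed), cleared of ribosomal RNA, aligned to mm10 (STAR 2.5.3a) and, if uniquely aligned, counted in union mode (HTSeq 0.6.1p1). Whether strand was used in counting is not given in the sources used here, and labels and methods differ on read length and layout.

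The test was that of edgeR 4.0.16 in R 4.3.3 (filterByExpr, TMM, robust quasi-likelihood F test) with genotype and 1 surrogate variable (sva 3.50.0), Benjamini-Hochberg (BH) adjustment over all 16272 tested genes and a threshold of 0.05. SE is the absolute log2 fold change over the square root of F. CPM are counts scaled to a library total of 1000000. On simulated data with 16272 genes, 46.9% of 98 genes changed by a log2 fold of 1 and 85.3% of 95 changed by 2 were recovered, and 8 unchanged genes were called.

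GRCm38 gene positions came from RefSeq, and lengths, GC content and sequences from GENCODE transcripts on NCBIM37, compared with that genome by blastn 2.17.0. A symbol was matched for 23260 identifiers. Alternatives used DESeq2 1.42.0, limma-voom (limma 3.58.1), other terms, size factors and filters, single lanes and left-out libraries.

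The members and lists were chosen with earlier results of these data known. Named genes were the 10 members, genes of the ratios, from each list those past the threshold, with the smallest p under 0.05 in each direction or of highest CPM, and the 3 genes most like Nuak1 and Nuak2.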

Additional observations from a re-analysis of the deposited data

Results flagged for a closer look

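The log2 ratio of Ppp1cb to the sum of Ppp1ca and Ppp1cc was 1.57 in KO1, far from the 0.64 to 0.76 of the other KO libraries. The gap to the nearest of them was 0.87 of the range of the 4 values, above Dixon's 95% critical value for 4 samples. This was 1 of 28 groups of 4 values examined, where chance gives about 1.4. WT1 stood as high, at 1.67, but WT3 at 1.01 narrowed its gap.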

How the results depend on the processing

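The number of tested genes past the adjusted threshold moved from 8 to 4 with no surrogate variable, with 2 of them or with lane as a term, to 3 with both libraries numbered 1 left out, to 1 with strain label in the model, to 45 without a filter, to 168 with DESeq2 and to 99 on lane B alone. On lane A alone it was 0 in edgeR, where 96 genes had an unadjusted p under 0.05, Nuak1 (−4.81, adjusted p 0.849) was no longer past the threshold, and 0 of the 10 genes passed. Leaving out 1 library gave 3 to 91 genes, the 91 without WT3. Of the same-numbered libraries only KO1 and WT1 went together, with a correlation of 0.80 between their deviations from the group means. This correlation was 0.0122 for KO2 and WT2, 0.2492 for KO3 and WT3, and 0.0023 for KO4 and WT4. Only 2 of 8 libraries, KO1 and WT1, correlated best with their own number. With the replicate block 3 genes passed, Nuak1 was at −4.91 and the other 9 genes stayed outside the threshold. The cause of these changes was not tested.

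The signs of several small differences were not stable, whereas Stradb, Ppp1r12a and Ppp1r12b kept theirs in all 20 alternatives. The Cab39l to Cab39 ratio also kept its sign in every alternative run for it. On lane A alone Nuak2 (−0.13), Stk11 (−0.0265) and Cab39 (−0.0041) turned, as did the Stradb to Strada ratio (−0.0302), and on lane B alone Cab39l (0.0882) and the Ppp1r12b to Ppp1r12a ratio (0.0031). With 2 surrogate variables Cab39l (0.0507) and Ppp1cb (0.062) turned, with strain label in the model Cab39l (0.0589) and Ppp1cb (0.0817), and with both libraries numbered 1 left out Cab39l (0.0195) and the Stradb to Strada ratio (−0.052). With 1 library left out, log2 fold changes ranged from −0.0015 to 0.35 for Nuak2, −0.0014 to 0.11 for Strada, −0.10 to 0.075 for Cab39l (0.0070 without KO3) and −0.15 to 0.0622 for Ppp1cb, and ratio differences from −0.0846 to 0.0504 for Stradb over Strada, −0.22 to 0.0683 for Ppp1r12b over Ppp1r12a and −0.3957 to 0.0218 for Ppp1cb over its relatives. None of these log2 fold changes passed the threshold under any alternative run. The ratio differences passed in none of the runs that tested them, but single lanes gave them no test. With both libraries numbered 1 left out they could not pass, because the exact permutation test then cannot go below an unadjusted p of 0.1. The levels per transcript length were added after seeing the data.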
